A study of Mus musculus with 6 samples.

Results

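The G2/M and mitosis genes are 54 genes named for the steps that take a dividing cell from the end of DNA replication through mitosis to cytokinesis. They range from the cyclins and CDK1 to kinetochore, condensin and spindle proteins. They were matched by gene symbol to a table of 9056 peaks bound by NF-YA in muscle stem cells, and 39 of the 54 had at least 1 peak, with 45 peaks in all. The other 15 genes had no row of their own, which means that no peak was annotated to them.

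The study measured binding of NF-YA by CUT&RUN, in which an antibody directs a nuclease to a chromatin protein and the released DNA is sequenced. The cells were cultured muscle stem cells (MuSCs) of wild-type C57BL/6 mice, labelled as activated and proliferating. There were 6 libraries, 3 with the NF-YA antibody and 3 with IgG. The table holds values for the 3 NF-YA libraries only, so the IgG libraries were not analysed here and no level could be set against its IgG background. The study used the IgG libraries as the control when it called peaks. The methods describe the NF-YA libraries as 3 biological replicates, and MuSCs were obtained by sorting for Integrin-alpha7 or a Pax7-zsGreen reporter after removal of SCA1, CD45 and CD31 positive cells. Reads of replicate 1 were shorter than those of replicates 2 and 3. The binding table holds no RNA, so neither the identity of the cells nor their share in G2 or mitosis could be checked. Levels are the authors' normalised reads per peak, rounded to whole numbers. In this unit 1 sequenced read was worth 0.67 in replicate 1, 1.48 in replicate 2 and 1.02 in replicate 3, and the peaks together held about 477083, 226909 and 334618 reads.

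NF-Y is a trimer of NF-YA, NF-YB and NF-YC that binds the pentamer CCAAT, read as ATTGG on the other strand, and NF-YA is the subunit that contacts the box. Promoters of many late cell cycle genes carry several CCAAT boxes close to the start of transcription, often followed by a cell cycle genes homology region (CHR), a TTTGAA-like element bound by the DREAM and MMB complexes that hold these genes silent in resting cells and help activate them before mitosis. MuSCs are quiescent in undamaged muscle and enter the cell cycle when activated.

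The sequences at the peaks show boxes of the kind counted below, over stretches that differ from the windows used for the counts. They are given for Cdca3, Top2a, Ube2c, Gtse1 and Ect2, which were among the 7 most strongly bound genes, and for Ccnb1, Ccnb2 and Cdk1, which encode the mitotic cyclin B proteins and their kinase. Cdc25c and Tpx2, the others of the 7, are not printed, and they held 0 and 1 box within 100 bp of the peak centre. All printed sequences were read from the reference genome GRCm38.p6, the mm10 build of the peak table, and are written 5′ to 3′ in the direction of the gene. CCAAT on either strand and CHR motifs (TTTGAA on either strand, or TTTAAA, a palindrome) are in capitals. The CHR counts below cover 100 bp before to 50 bp after the RefSeq start. The printed TTTGAA of Top2a and Ect2 began 179 and 114 bp before a RefSeq start, outside that window. At Top2a, Ect2 and Cdk1 the last CHR, from which distances to CCAAT are taken below, lies outside the printed stretch.
Top2a (chr11:99024223-99024436, minus strand): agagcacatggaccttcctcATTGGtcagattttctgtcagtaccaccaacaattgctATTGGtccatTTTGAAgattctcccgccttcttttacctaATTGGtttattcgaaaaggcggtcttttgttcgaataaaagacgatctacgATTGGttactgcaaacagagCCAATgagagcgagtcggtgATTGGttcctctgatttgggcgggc
Ube2c (chr2:164769681-164769896, plus strand): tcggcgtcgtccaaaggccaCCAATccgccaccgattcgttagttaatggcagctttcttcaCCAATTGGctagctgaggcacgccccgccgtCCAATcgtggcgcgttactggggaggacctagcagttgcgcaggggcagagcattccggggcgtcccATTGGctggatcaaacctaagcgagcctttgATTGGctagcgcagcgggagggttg
Gtse1 (chr15:85859588-85859729, plus strand): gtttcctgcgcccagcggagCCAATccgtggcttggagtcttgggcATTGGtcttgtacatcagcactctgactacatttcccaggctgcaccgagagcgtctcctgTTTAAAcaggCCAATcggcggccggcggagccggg
Ect2 (chr3:27153909-27153994, minus strand): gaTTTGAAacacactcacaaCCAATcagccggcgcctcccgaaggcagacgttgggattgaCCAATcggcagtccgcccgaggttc
Ccnb2 (chr9:70421551-70421661, minus strand): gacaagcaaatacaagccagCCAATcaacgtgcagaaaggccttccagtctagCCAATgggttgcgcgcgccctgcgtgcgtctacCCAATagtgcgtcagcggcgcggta
Cdk1 (chr10:69352939-69353140, minus strand): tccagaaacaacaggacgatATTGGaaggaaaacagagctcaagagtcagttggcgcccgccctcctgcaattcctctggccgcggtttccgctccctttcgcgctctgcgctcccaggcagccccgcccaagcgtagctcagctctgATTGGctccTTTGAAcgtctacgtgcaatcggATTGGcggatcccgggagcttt
Top2a held 6 boxes in the stretch from 247 to 34 bp before the start, all but 1 of them on the strand opposite to the gene. Ube2c also held 6, of which CCAATTGG is 2 overlapping boxes on opposite strands. The 3 boxes of Ccnb2 all lay on the strand of the gene, with 33 bp from each box start to the next. Cdk1 had 2 neighbouring boxes on the opposite strand with 32 bp between their starts, and a TTTGAA between them.

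Of Cdca3 and Ccnb1 only the boxes near the peak centre are shown, as target sites of 25 bases. The longer stretches above lie outside coding and UTR sequence.
Cdca3 (chr6:124829770-124829794, plus strand): aaggactcgtCCAATcagaaagcac
Cdca3 (chr6:124829852-124829876, plus strand): actccgtcaaCCAATaaggatggct
Ccnb1 (chr13:100786571-100786595, minus strand): acccgcggcgCCAATgggaagagag
Ccnb1 (chr13:100786539-100786563, minus strand): cacgaactggCCAATgaggagcgag
The Cdca3 boxes lay 82 bp apart, downstream of the start in GENCODE M21. From the RefSeq start used for the promoter motifs, they lay upstream, beyond the 250 bp searched there. Both Ccnb1 boxes were on the strand of the gene with 32 bp between their starts, 1 before and 1 after the start in GENCODE M21. From the RefSeq start, both Ccnb1 boxes lay upstream.

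A peak was annotated to 39 of the 54 genes (72.2%, 95% Wilson interval 59.1 to 82.4), beside 19% of the 21938 protein-coding genes of GENCODE M21. All 39 had a promoter peak, meaning one centred within 1000 bp of the transcription start. This is again 72.2% of the 54 genes, beside 14.8% of all protein-coding genes. The intervals cover counting error only. Peaks were merged across samples, and the study lists more peaks passing its enrichment cutoff for replicate 1 than for replicates 2 and 3. In which library each peak was called cannot be told from the values. The protein-coding genes may include genes that are silent in these cells, and the comparison was not matched for expression, which was not measured in this table.

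Each peak in the table is named for 1 gene, and 4 of the 15 genes without a row shared a start region with a gene that took the name. Cks1b, a small subunit of cyclin-dependent kinases, had a peak centred 122 bp from a start of its own that is named for Shc1 (285, 325 and 347 normalised reads in replicates 1, 2 and 3). A peak 52 bp from a start of Cdca8, the borealin subunit of the chromosomal passenger complex, is named for C1orf109 (110, 96 and 120). Hmmr, which encodes a spindle protein, lay 124 bp from the peak of Nudcd2 (119 and 106 in replicates 1 and 2, mean of all 3 libraries 109 ± 9.29, SD), and Nusap1, a microtubule-binding protein of the spindle, 77 bp from that of Oip5 (109, 106 and 108). All 4 peaks had 96 normalised reads or more in each library, and at which of the paired genes NF-YA acts cannot be told apart. With any transcript start within 1000 bp, 43 of the 54 genes (79.6%) had a peak, beside 19.1% of protein-coding genes.

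The other 11 genes had no peak within 1000 bp of any annotated start. Of these, Pkmyt1, a kinase that inhibits CDK1, had the closest peak at 5738 bp. For Smc4, Cenpe, Ndc80, Bub1b, Anln, Birc5, Plk4, Nuf2, Mad2l1 and Smc2 the nearest peak lay between 14457 and 2372075 bp away. They include the spindle checkpoint proteins BUBR1 and MAD2, the survivin subunit of the passenger complex, 2 subunits of the outer kinetochore complex NDC80 (Ndc80 and Nuf2) and both SMC subunits of condensin. No level is known at a promoter without a peak, since the table lists called peaks only.

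**Figure D1:**
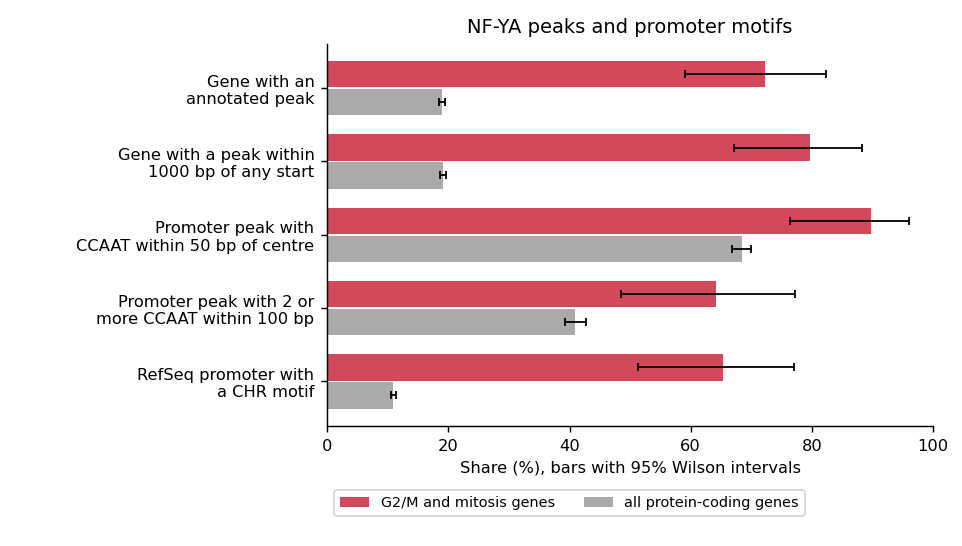
Shares of the G2/M and mitosis genes (red) and of protein-coding genes (grey) in percent, with 95% Wilson intervals as black bars. The CCAAT rows count only genes with a promoter peak (39 and 3246). The CHR row counts RefSeq promoter entries (49 and 21263). From the top, the rows are a peak annotated to the gene (72.2% beside 19%), a peak near any transcript start (79.6% beside 19.1%), CCAAT within 50 bp of the promoter peak centre (89.7% beside 68.4%), 2 or more CCAAT within 100 bp of it (64.1% beside 41%) and a CHR motif in the RefSeq promoter (65.3% beside 10.9%).

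The strongest promoter peaks of the 39 genes had medians of 61, 56 and 50 normalised reads in replicates 1, 2 and 3. Those of all 3246 protein-coding genes with a promoter peak had medians of 34, 34 and 36. On the log2 scale the first medians exceeded the second by 0.84, 0.72 and 0.47, a mean of 0.68 ± 0.19 (SD, n = 3 libraries). However, the peaks of the 39 genes were longer, with a median of 335 bp beside 266 bp. Per kb of peak the log2 differences between the medians were 0.48, 0.36 and -0.05, which average 0.26 ± 0.28 (SD, n = 3), so the higher level per peak did not hold per length in every library. No test of these differences was made, because all values came from 1 group of 3 libraries.

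When all promoter peaks were split by level per peak into 4 groups of equal size, the weakest to the strongest group held 6, 9, 10 and 14 of the 39 genes. Per kb of peak the groups held 5, 12, 8 and 14. The genes were thus found at all levels, from Cdc25b to Cdca3.

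**Figure D2:**
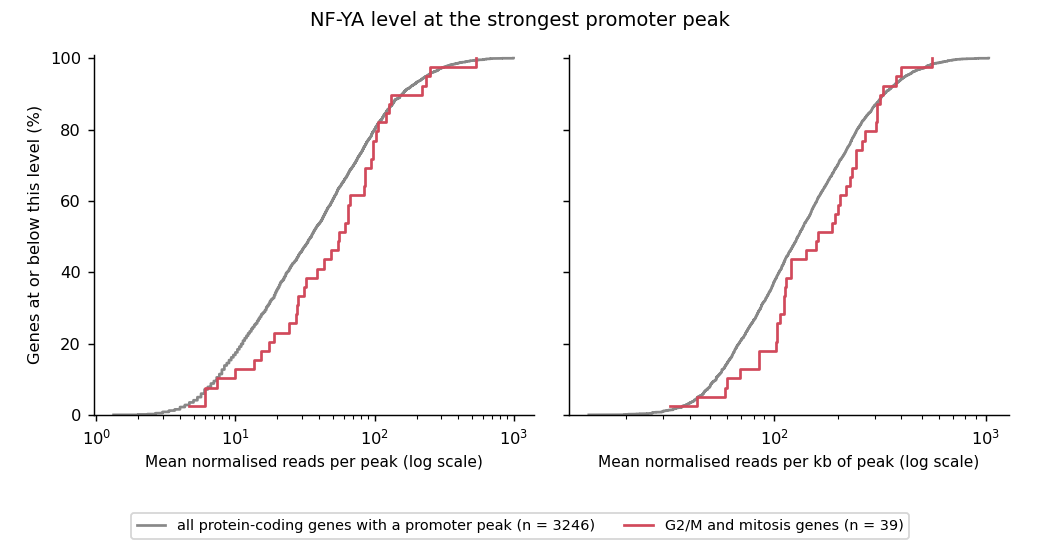
Cumulative share of genes (vertical axis, percent) by the mean normalised reads of their strongest promoter peak over 3 NF-YA libraries, per peak on the left and per kb of peak on the right, both on log axes. The red line for the 39 G2/M and mitosis genes lies to the right of the grey line for all 3246 genes over the middle of the range per peak (medians of the means 55.3 and 35) and comes closer to it per kb (161 and 129).

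Among the cyclins and CDK1, 6 of 7 genes had their own promoter peak. Ccnf, which encodes cyclin F, the substrate receptor of an SCF ubiquitin ligase, had the highest level with 116, 80 and 110 normalised reads (102 ± 19.3, SD, n = 3) at chr17:24251336-24251671, centred 19 bp before the start. Cks2, the close relative of Cks1b, followed with 98, 103 and 93 (98 ± 5). The 2 did not differ beyond their ranges. Cyclin B2 (Ccnb2) had 50, 47 and 67 (54.7 ± 10.8) at chr9:70421546-70421819, and Cdk1 had 61, 44 and 42 (49 ± 10.4) at chr10:69352801-69353146. Cyclin A2 (Ccna2) had 36, 50 and 30 (38.7 ± 10.3) and cyclin B1 (Ccnb1) 37, 25 and 21 (27.7 ± 8.33) at chr13:100786475-100786723. The ranges of the last 4 genes overlapped between neighbours in the order, and per kb of peak they ran from 200 for Ccnb2 over 142 for Cdk1 and 111 for Ccnb1 to 103 for Ccna2. A further peak of Ccnb2, 2043 bp before its start, was weaker with 13, 21 and 15 and held no CCAAT.

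The regulators of CDK1 phosphorylation and mitotic entry held both ends of the range. Cdca3 (ENSMUSG00000023505), also known as TOME-1 and linked to degradation of the WEE1 kinase, had 369, 672 and 558 normalised reads (533 ± 153), rank 19 of all 9056 peaks. Its peak of 954 bp at chr6:124829372-124830325 was centred in the 5′ UTR, 301 bp after the start in GENCODE M21, with 8 CCAAT boxes over its length. The centre lay upstream of the RefSeq start. Replicate 1 was lowest there, and a start of Usp5 also lay within 1000 bp, so the 2 genes cannot be told apart at this peak. Cdc25c, a phosphatase that activates CDK1, had 221, 275 and 251 (249 ± 27.1). Its peak was 764 bp long and centred 297 bp before the start, and no CCAAT lay within 100 bp of the centre, although the whole peak held 4, the nearest 104 bp from the centre. Cdc25a had 117, 92 and 83 (97.3 ± 17.6), and Wee1, the kinase that opposes it, had 80, 81 and 123 (94.7 ± 24.5), with replicate 3 the highest. Wee1 had another peak 7127 bp before the start with a mean of 19. Cdc25b, the remaining CDC25 phosphatase, had 7, 4 and 3 (4.67 ± 2.08), the weakest promoter peak of the 39. The value fell at or below the worth of 3 reads in replicates 2 and 3.

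The mitotic kinases differed in the same way. Nek2, a kinase of centrosome separation, had 74, 80 and 100 normalised reads (84.7 ± 13.6), and Aurka (Aurora A) 55, 64 and 65 (61.3 ± 5.51) at a start region it shares with Cstf1. Polo-like kinase 1 (Plk1) had only 9, 1 and 8 (6 ± 4.36), with replicate 2 at the worth of about 1 read. Thus the ranges of Nek2 and Aurka lay wholly above that of Plk1. Of the chromosomal passenger complex, Incenp had 76, 56 and 62 (64.7 ± 10.3) and its kinase Aurkb (Aurora B) 23, 19 and 10 (17.3 ± 6.66), and these ranges did not overlap either. A second Aurkb peak 4462 bp before the start had a mean of 4.33.

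Of the spindle checkpoint genes, Bub3, a scaffold of the checkpoint complex, had 65, 72 and 64 (67 ± 4.36). The kinase Ttk (MPS1) had 39, 21 and 36 (32 ± 9.64) and the kinase Bub1 12, 18 and 16 (15.3 ± 3.06). The order Bub3, Ttk and Bub1 was the same in every library. Per kb of peak the 3 genes lay close together, at 114, 111 and 102, since the Bub3 peak was 587 bp long and the Bub1 peak 150 bp.

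All 6 genes of the anaphase-promoting complex (APC/C) and cohesion group had a promoter peak, and their levels ran from 7.33 to 218. Ube2c, the ubiquitin-conjugating enzyme that works with the APC/C, had 193, 208 and 253 normalised reads (218 ± 31.2) at chr2:164769319-164770030, with 6 CCAAT boxes over the peak. Of the 2 activators of the complex, Cdc20 had 80, 68 and 45 (64.3 ± 17.8), while Fzr1 (CDH1) had 18, 7 and 16 (13.7 ± 5.86) and was the only one of the 39 genes with no CCAAT anywhere in its peak. CDC20 acts in mitosis and CDH1 from its end into G1. Pttg1 (securin), which restrains separase, had 35, 27 and 23 (28.3 ± 6.11). Shugoshin (Sgo1), the protector of centromeric cohesion, had 7, 15 and 8 (10 ± 4.36) and separase itself (Espl1) 7, 7 and 8 (7.33 ± 0.577). The last 2 were too weak to be put in order.

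The 3 bound kinetochore and centromere genes had middle to high levels. Spc25, a subunit of the NDC80 complex, had 82, 84 and 88 (84.7 ± 3.06), the smallest spread of the 39 genes relative to the mean. Cenpf had 87, 65 and 99 (83.7 ± 17.2) and Cenpa, the centromeric histone H3 variant, 64, 59 and 43 (55.3 ± 11). Thus of the NDC80 complex Spc25 had a peak at its promoter while Ndc80 and Nuf2 had none.

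Of the chromosome structure genes, Top2a (topoisomerase II alpha, which untangles sister chromatids) had 206, 250 and 242 normalised reads (233 ± 23.4) at chr11:99024084-99024670, centred 188 bp before the start. Condensin subunits spread widely. Ncapd2 had between 100 and 115 (105 ± 8.39), highest in replicate 1, at a start region it shares with Mrpl51, Ncapg had 21, 19 and 17 (19 ± 2) and Ncaph 5, 3 and 10 (6 ± 3.61). The 3 ranges did not overlap, whereas the condensin genes Smc2 and Smc4 had no peak. Mki67, the gene of the proliferation marker Ki-67, had 25, 30 and 18 (24.3 ± 6.03), a weak peak in spite of 3 CCAAT boxes within 50 bp of its centre.

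The spindle genes were led by Tpx2, an activator of Aurora A, with 125, 151 and 119 (132 ± 17), and Gtse1, which binds microtubule ends, with 114, 143 and 125 (127 ± 14.6). The microtubule bundling protein Prc1 had 38, 35 and 21 (31.3 ± 9.07). Stmn1 (stathmin, a microtubule destabiliser) had 2 peaks of like level, 29, 24 and 29 in an intron 822 bp after the start and 29, 24 and 25 at the start. In the cytokinesis group, Ect2, the exchange factor that activates RhoA at the cell equator, had 134, 102 and 129 (122 ± 17.2), and Racgap1, a subunit of centralspindlin, had 38, 41 and 50 (43 ± 6.25). All libraries placed Ect2 above Racgap1. Further Ect2 peaks, 1269 bp before and 594 bp after the start, were weak with means of 11.3 and 4.

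**Figure D3:**
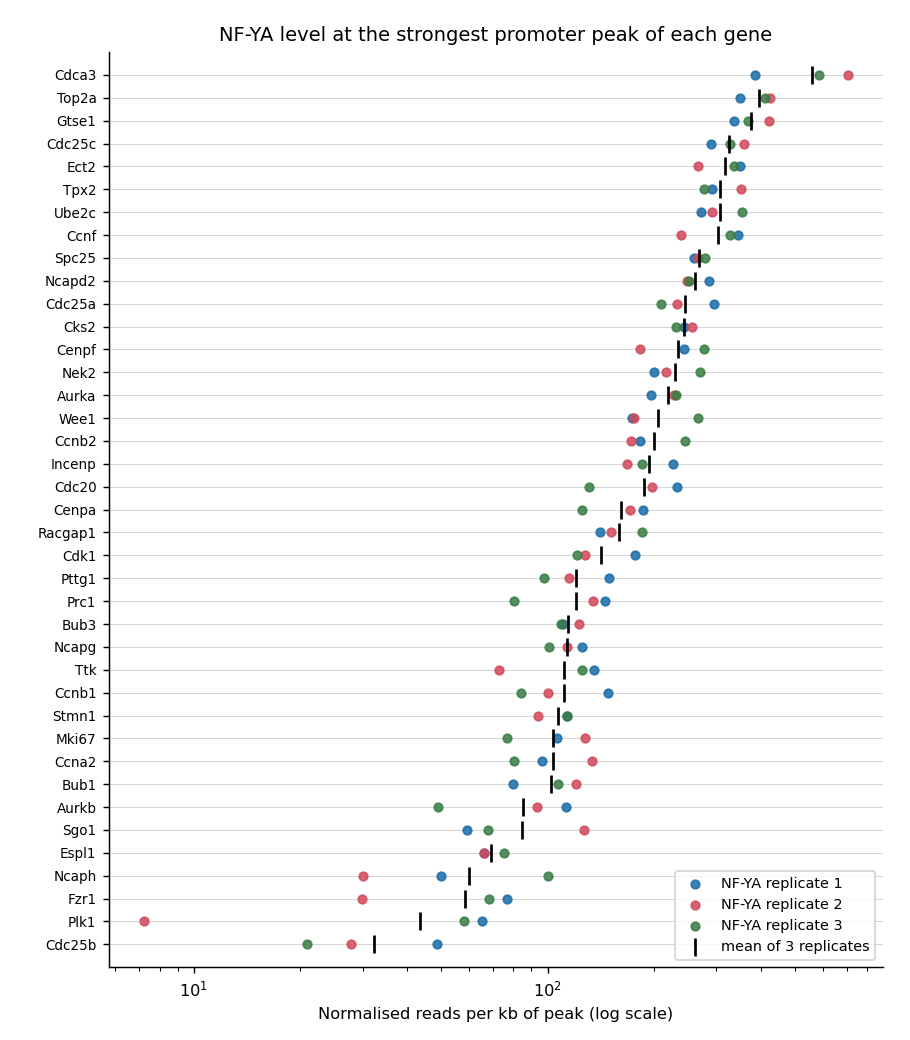
Normalised reads per kb of peak (horizontal log axis) of the strongest promoter peak of each of the 39 genes, with 1 dot for each NF-YA library and a black bar at the mean. Levels ran from 32.4 for Cdc25b to 559 for Cdca3, and replicate 2 stands below the others at Plk1.

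Neighbours in the order of levels could mostly not be separated. Per peak, the ranges over the 3 libraries overlapped in 36 of 38 neighbouring pairs, with Cdca3 above Cdc25c and Ube2c above Tpx2 as the exceptions. Per kb they overlapped in all 38 pairs. The median coefficient of variation (CV) of the 39 peaks was 19.7%, beside 18.5% for all promoter peaks. The square root of the variance from counting, relative to the mean, had medians of 13.8% and 17.4%. With 3 libraries a sample SD lies below that root more often than not, so counting alone would give lower median CVs. Replicate 1 was the highest library in 17 of the 39 peaks (43.6%), beside 32.1% of all promoter peaks. At or below the worth of 3 reads were 0, 3 and 1 of the 39 peaks in replicates 1, 2 and 3.

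The peaks lay close to the start of transcription. Of the 39, 29 were centred upstream, 8 in the 5′ UTR and 2 in an intron, and 34 spanned the annotated start. The median distance of the centre from the start was 66 bp, beside 96 bp for all promoter peaks. A start of another gene lay within 1000 bp of 13 of the 39 peaks, and in 4 of these it was a protein-coding gene.

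Within 50 bp of the centre, 35 of the 39 peaks held CCAAT on either strand (89.7%, 76.4 to 95.9), beside 68.4% of all promoter peaks. The 4 without were those of Ccna2, Prc1, Cdc25c and Fzr1, of which the first 2 had 1 box within 100 bp of the centre. Within 100 bp, 25 of the 39 held 2 or more boxes (64.1%, 48.4 to 77.3), beside 41%. Both shares were higher in the G2/M and mitosis genes than in all bound genes, and the intervals cover counting error only. No test was made, since the gene list was chosen with earlier results of these data known. Peak length moved with the number of boxes, with medians of 186, 229, 316 and 393 bp at 0, 1, 2 and 3 or more boxes over all bound genes, and its part in these shares was not tested.

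From 1 box to 3 or more, median levels were higher with more boxes in both sets. The 12 genes with 1 box within 100 bp of the centre had a median of 23.2 normalised reads, the 19 with 2 boxes 64.3, and the 6 with 3 or more 124. For all bound genes the medians were 25, 57.7 and 106. Per kb of peak the medians were 105, 193 and 312, beside 111, 179 and 270. At the same number of boxes the medians of the 39 genes and of all genes lay close together, and the ranges within each number were wide, from 4.67 to 132 with 1 box and from 15.3 to 533 with 2. The order did not extend to the 2 genes with 0 boxes in this window, Cdc25c with a mean of 249 and Fzr1 with 13.7, beside a median of 13.7 for all bound genes with 0 boxes.

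**Figure D4:**
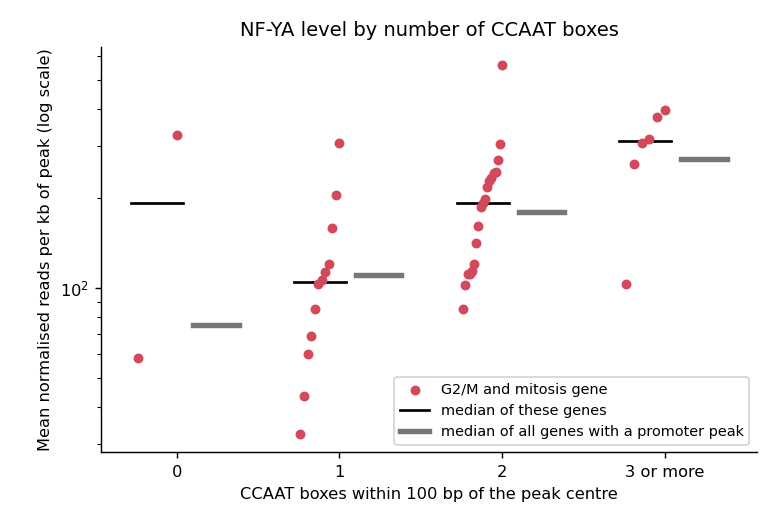
Mean normalised reads per kb of peak (vertical log axis) by the number of CCAAT boxes within 100 bp of the centre of the promoter peak. Each red dot is 1 of the 39 genes, black lines are their medians (105 with 1 box, 193 with 2, 312 with 3 or more) and grey lines the medians of all 3246 genes with a promoter peak (111, 179 and 270). The 2 genes with 0 boxes lie far apart, at 58.4 (Fzr1) and 326 (Cdc25c).

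Within 100 bp of the centre 37 genes held 69 boxes, 40 on the strand of the gene and 29 on the other, with 51 upstream of the start. Neighbouring boxes on the same strand made 26 pairs in 22 genes, with a median spacing of 40.5 bp, beside 43 bp for all bound genes. A spacing of 30 to 34 bp, about 3 turns of the helix, was chosen after the spacings were seen and held 7 of the 26 pairs (26.9%, 13.7 to 46.1), beside 257 of 1305 (19.7%). The 7 were in Nek2 and Ccnb2 (33 bp), Spc25, Aurka, Cdk1 and Ccnb1 (32 bp) and Aurkb (30 bp). Their share lay within the counting error of that of all bound genes.

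For a view that does not start from the peaks, motifs were counted in RefSeq promoters of GRCm38.p6, from 250 bp before to 50 bp after the start. Entries were found for 45 of the 54 genes, 49 entries in all, and for 21263 protein-coding promoters. Ccna2, Cdc25c, Wee1, Pkmyt1, Aurkb, Incenp, Smc4, Tpx2 and Stmn1 had none. CCAAT was present in 81.6% of the 49 entries and in 38.2% of all. Of the entries at genes with a promoter peak, 94.4% held it, beside 74.2% for all such genes. For counts with 1 entry for each gene, a gene with its own promoter peak and several entries took the entry nearest that peak. With 1 entry for each gene, 30 of 32 genes with their own promoter peak held CCAAT, Pttg1 and Ncaph being the exceptions although their peaks held 2 and 1, and 22 held 2 or more boxes. Of the 9 genes with no peak near any start, 3 held CCAAT (Bub1b, Cenpe and Smc2) and 0 held 2 or more. Boxes were thus fewer in the promoters where no peak was called.

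The CHR was sought from 100 bp before to 50 bp after the start, as TTTGAA or TTTAAA on either strand. It was present in 32 of the 49 entries (65.3%, 51.3 to 77.1), beside 10.9% of all protein-coding promoters. TTTGAA alone gave 59.2% and 6.75%. With 1 entry for each gene, it was present in 22 of 32 genes with their own promoter peak, in 3 of 4 whose peak is named for a neighbour and in 5 of 9 with no peak near any start. These counts are too small to tell whether the CHR differed with the peak, which was not tested. Of all bound promoters 7.17% held it. Both motifs occurred together in 61.2% of the entries, beside 4.39% of all promoters and 5.71% of all bound ones. Cks2, Cdc25a, Cdc25b, Nek2, Bub1, Fzr1, Pttg1, Sgo1, Ncapd2 and Ncaph had a promoter peak and no CHR in this window, whereas Ndc80, Anln, Bub1b, Cenpe and Smc2 had a CHR and no peak. A motif match describes the letters only, and whether the DREAM or MMB complexes bind there was not measured.

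The 32 TTTGAA found in the entries lay mostly on the strand of the gene (24, 75%, 57.9 to 86.7), beside 56.5% of the 1508 found in all promoters. Entries of the same gene can overlap, as at Ect2 and Prc1, so a site can be counted in more than 1 entry. Within 40 bp of the start were 27 of the 32 (84.4%, 68.2 to 93.1), beside 47.1% for all promoters. The window of 40 bp was chosen after the positions had been seen. Of the 22 genes with their own promoter peak and both motifs, 20 had a CHR downstream of every CCAAT box, all but Bub3 and Cdc20. Counted by entry, this was 22 of 24 (91.7%, 74.2 to 97.7), beside 110 of 157 (70.1%) for all bound promoters with both motifs. The windows favour this order, since CCAAT was sought from 250 bp and the CHR from 100 bp before the start. With both sought from 100 bp before the start, the shares were 19 of 21 (90.5%, 71.1 to 97.3) and 83 of 130 (63.8%), and the difference was not tested. The median distance from the start of the last box to that of the last CHR was 35 bp, with a range from 17 bp at Espl1 and Racgap1 to 146 bp at Ncapg. At Ccnb1 and Ccnb2 it was 25 bp, at Cdk1 33 bp and at Top2a 35 bp.

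**Figure D5:**
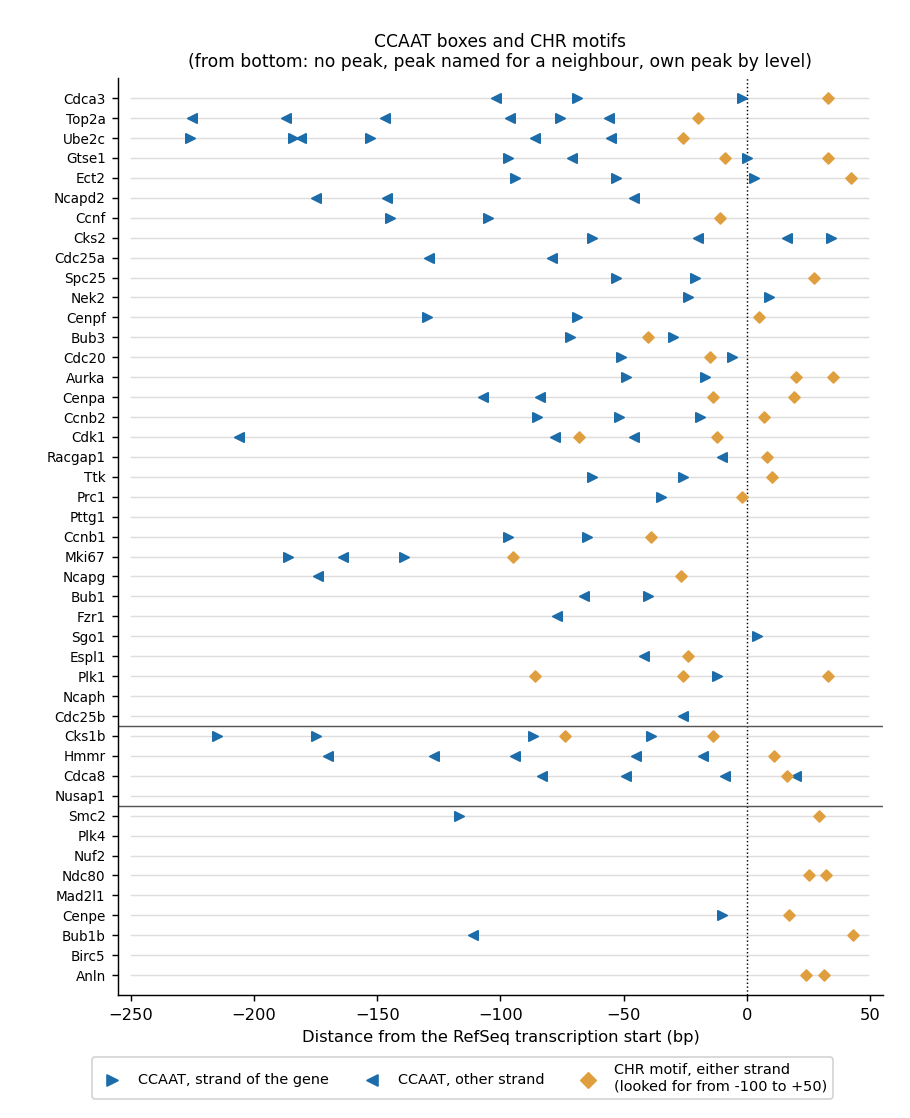
Positions of CCAAT boxes (blue triangles, pointing right on the strand of the gene and left on the other) and CHR motifs (orange diamonds) by distance from the RefSeq start in bp (horizontal axis), with 1 row for each of the 45 genes with an entry. From the bottom the rows are 9 genes with no peak near a start, 4 whose peak is named for a neighbour, and 32 with their own promoter peak ordered by level, and boxes are dense in the upper rows and sparse at the bottom while CHR motifs occur in both.

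Other cell cycle genes were taken from lists that share no member with the 54, and the leading genes are those with the highest mean per peak. Of 39 further genes of mitotic entry, spindle and cytokinesis, 24 had a peak (61.5%), led by Troap with 166, 160 and 171 normalised reads, Cdkn3, a CDK phosphatase, with 139, 121 and 151, and the cohesin subunit Smc3 with 106, 111 and 131. Of 12 mitotic kinesins 8 had one (66.7%), among them Kif20a, which acts in cytokinesis, with 70, 103 and 114, and Kif18b with 92, 98 and 86, whose ranges overlapped. Of 27 other kinetochore and centromere genes 13 had one (48.1%), led by Ska2 with 611, 615 and 623 and Mis12 with 306, 244 and 322, both kinetochore subunits. Of 52 DNA replication and G1/S genes 24 had one (46.2%), led by Gins2, a subunit of the replicative helicase, with 239, 177 and 180. Of 14 APC/C subunits 3 had one (21.4%), Cdc23, Anapc5 and Anapc11, although the APC/C partners Ube2c, Cdc20 and Fzr1 were all bound. The share of genes with a peak thus ran from 21.4% to 72.2% over the lists, beside 19% for all protein-coding genes. Median levels of their promoter peaks per kb were 163, 122, 119, 168 and 276 in the order given, beside 161 for the 39 genes, and these differences between lists were not tested.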

How the data were processed

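CUT&RUN reads were trimmed with Trimmomatic 0.39, aligned with STAR 2.7.9a to mm10 and deduplicated with Picard 2.25.5, per the submitters' processing notes and the methods. Peaks were called by the authors against the IgG library of each sample, merged across samples and annotated to a gene within 10000 nt. Reads per peak were scaled with DESeq2 1.30.0 by the authors, and the deposited values are these scaled reads rounded to whole numbers, treated here as a score because raw counts cannot be restored from them. Replicates 1, 2 and 3 of NF-YA came from 1 group. The worth of 1 read in each was estimated from the steps between values (0.67, 1.48 and 1.02 per read), by a method tested on simulated data. It gives the reads in peaks and not the sequencing depth. The study lists fewer uniquely mapped reads for replicate 1 than for replicates 2 and 3.

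The 54 genes, the comparison lists and the rule for named genes (every strongest promoter peak of the 54 genes, and the strongest genes of each other list) were chosen with earlier results of these data known. Promoter peaks were centred within 1000 bp of the transcription start of the annotated gene. Starts came from GENCODE M21, where 6141 of the 6191 peaks with a gene identifier matched the start and end of their gene. Motifs were counted on both strands of GRCm38.p6 and of RefSeq promoters. Shares carry 95% Wilson intervals. Computations used Python 3.11.15, numpy 2.4.6, scipy 1.17.1, pandas 2.3.3, pysam 0.24.0 and matplotlib 3.10.9. No p-value was computed, since 1 group had values. Alternatives covered the promoter distance, low values, peak length, scaling, motif windows and each replicate left out.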

Additional observations from a re-analysis of the deposited data

How the results depend on the processing

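Of 41 alternatives over 9 results, 31 left the value close to that given above, 10 moved it and 0 turned its direction. Counts, levels and the CV have no direction to turn. Per kb of peak the log2 ratio stayed positive on average but was -0.05 in replicate 3. Some of the 31 could not move the value. Scaling to equal summed values cannot change a log2 ratio taken within each library. Peaks were not called again with a replicate left out, and the share with CCAAT stayed at 89.7%. The mean of the per-library medians, 55.7 normalised reads, became 158 per kb of peak, 50 with every promoter peak of a gene counted and 64.3 with peaks of a mean of at least 10, and lay between 53 and 58.5 with 1 replicate left out. The log2 ratio to all promoter peaks, 0.68, became 0.26 per kb of peak and 0.47 with peaks of a mean of at least 10, and lay between 0.60 and 0.78 with 1 replicate left out. The median CV fell from 19.7% to between 13.6% and 14.3% with 1 replicate left out, where it rests on 2 libraries. The share with CCAAT became 97.4% over whole peaks (83.8% for all bound genes), and that with 2 or more boxes 38.5% within 50 bp of the centre (21.4% for all bound genes). The order of CHR and CCAAT with both sought in 1 window, chosen after seeing the data, changed from 91.7% to 90.5%. No paired analysis was possible because values were given for the NF-YA libraries only. The number of reads limits the weakest peaks, where 3 reads were worth 2.01, 4.43 and 3.06 normalised reads in replicates 1, 2 and 3.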

Other observations

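Other promoter motifs were counted in the same 150 bp. An E2F-like motif (TTCCCGC or TTGGCGC, either strand) was present in 7 of the 49 entries of the G2/M and mitosis genes (14.3%, 95% Wilson interval 7.10 to 26.7), beside 4.95% of all protein-coding promoters, and all 7 belonged to genes with a promoter peak (19.4% of 36, beside 8.11% of all bound promoters). They were those of Cdc25a, which acts early in the cycle, Ncapd2, Ncapg, Ncaph and Mki67, with 2 entries of Ect2. The GC box GGGCGG, the core of SP1 sites, was present in 57.1% of the entries and 38.3% of all promoters, and among bound promoters in 55.6% and 59.3%. No test of these shares was made.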
